A study of Mus musculus with 12 samples.

Results

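The immunoglobulin isotype and plasma cell genes are 10 genes, all of them present among the 59136 entries of the count table. They were chosen by gene symbol. Of the 10, 5 encode heavy chain constant regions (Ighm, Ighd, Igha, Ighg2b and Ighg3), 3 encode light chain constant regions (Igkc, Iglc1 and Iglc2), and Jchain and Mzb1 belong to the antibody-secreting programme. They were measured by messenger RNA sequencing in 12 mouse lung libraries, all labelled day 28. The 6 Mut libraries (replicates 1, 2, 3, 4, 5 and 7) came from mice given as IARS1-TYR148CYS/ARG444*, which carry a missense change and a stop codon in the cytosolic isoleucyl-tRNA synthetase gene, and their genotype label reads IARS1 knockdown. The 6 WT libraries (replicates 1, 3, 4, 5, 6 and 7) were labelled WT for the same gene. The labels call the tissue lung and also speak of primary cells. No source used here gives the strain or says that each library is a separate mouse, so the p-values cover only the variation among these libraries, which could be partly technical.

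An antibody is built from paired heavy and light chains, and the constant region of the heavy chain sets its class. A mature B cell that has not met antigen carries IgM and IgD at its surface, made by alternative processing of a shared transcript over the Ighm and Ighd genes. After activation a B cell can switch its heavy chain gene to a downstream constant region, such as those of IgG or IgA, and can become a plasma cell that secretes antibody. Light chains are of the kappa type (Igkc) or the lambda type (Iglc genes), with kappa prevailing in mice. The J chain, encoded by Jchain, links secreted IgM into pentamers and IgA into dimers that the polymeric immunoglobulin receptor carries across mucosal epithelium, in the airways among other sites. Mzb1 encodes a protein of the endoplasmic reticulum that helps assembly and secretion of antibody in plasma cells and in marginal zone and B-1 B cells.

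The link between J chain and the 2 classes it serves can be read in the genes. Below are the last 60 coding bases of the secreted forms of Ighm (chr12:113420867-113420926, minus strand), Igha (chr12:113258768-113258827, minus strand) and, for contrast, Ighg2b (chr12:113306389-113306448, minus strand), from GENCODE M21 transcripts on GRCm38, printed 5′ to 3′ along the transcript.
Ighm: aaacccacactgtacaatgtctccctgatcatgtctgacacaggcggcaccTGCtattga
Igha: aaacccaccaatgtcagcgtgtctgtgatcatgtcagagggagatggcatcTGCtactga
Ighg2b: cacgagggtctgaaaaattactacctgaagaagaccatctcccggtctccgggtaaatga
Capitals mark the cysteine codon just before the last amino acid, in the tailpiece that IgM and IgA share and through which they bond to J chain. The IgG2b sequence ends without such a tailpiece. The counts are per gene, so secreted and membrane-bound forms of one heavy chain were added together in every value below.

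Mut lungs had less transcript of IgM, IgD and both light chain types than WT lungs, with log2 fold changes between −1.44 and −1.02. Igha and Jchain ranged widely within each group, and their lower Mut means did not pass the test. Of the 10 genes, 9 passed the low-count filter and 6 of them were lower in Mut (edgeR quasi-likelihood test, adjusted p under 0.05), with 0 higher. At an unadjusted p under 0.05 all 9 were lower and 0 higher, against 27.7% of all tested genes in either direction. DESeq2 called 7 lower and 0 higher. The alternative fits that kept all libraries called 107 to 2815 genes in total, and the DESeq2 share alone is not given here. By the edgeR test, 9.89% of all 19004 genes tested were called, 5.31% as lower (1010 genes) and 4.57% as higher (869). Upper-quartile scaling gave 1242 lower and 648 higher over all genes, and library totals alone 1513 and 518, with the same number of the 9 called. The median log2 fold change (Mut minus WT) of the 9 was −1.12, against 0.01 over all tested genes. Ighg3 was not tested because of its low counts. In 3 of the 10 genes, Ighd, Igkc and Iglc1, all 6 Mut libraries lay below all 6 WT libraries, which held for 2.39% of all tested genes. The opposite separation held for 0 of the 10 genes and for 2.18% of all tested genes. In bulk tissue, fewer B cells and less RNA per cell cannot be told apart.

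Library totals ran from 17118716 to 24014890 counts. All immunoglobulin genes together took 0.0246% to 0.0360% of the counts in Mut libraries and 0.0454% to 0.0855% in WT libraries, groups that did not overlap. Iars1, annotated as Iars, read 41.4 to 71.6 CPM (counts scaled to a common library size by TMM) in Mut libraries and 35.6 to 58.4 CPM in WT libraries, and was not called (log2 fold change 0.29, SE 0.14, adjusted p = 0.189, edgeR quasi-likelihood test). Alveolar markers were high in every library, with summed levels of 14452 to 28086 CPM in Mut and 16341 to 26204 CPM in WT. One library stood apart in its tissue markers. Mut replicate 7 had the lowest endothelial sum (1936 CPM, against 3127 to 3712 CPM in the other Mut libraries and 2904 to 3180 CPM in WT) and the highest alveolar and neutrophil sums. For Igha, Jchain, the ratios that it moved and the correlations over all libraries, values without it are also given.

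**Figure D1:**
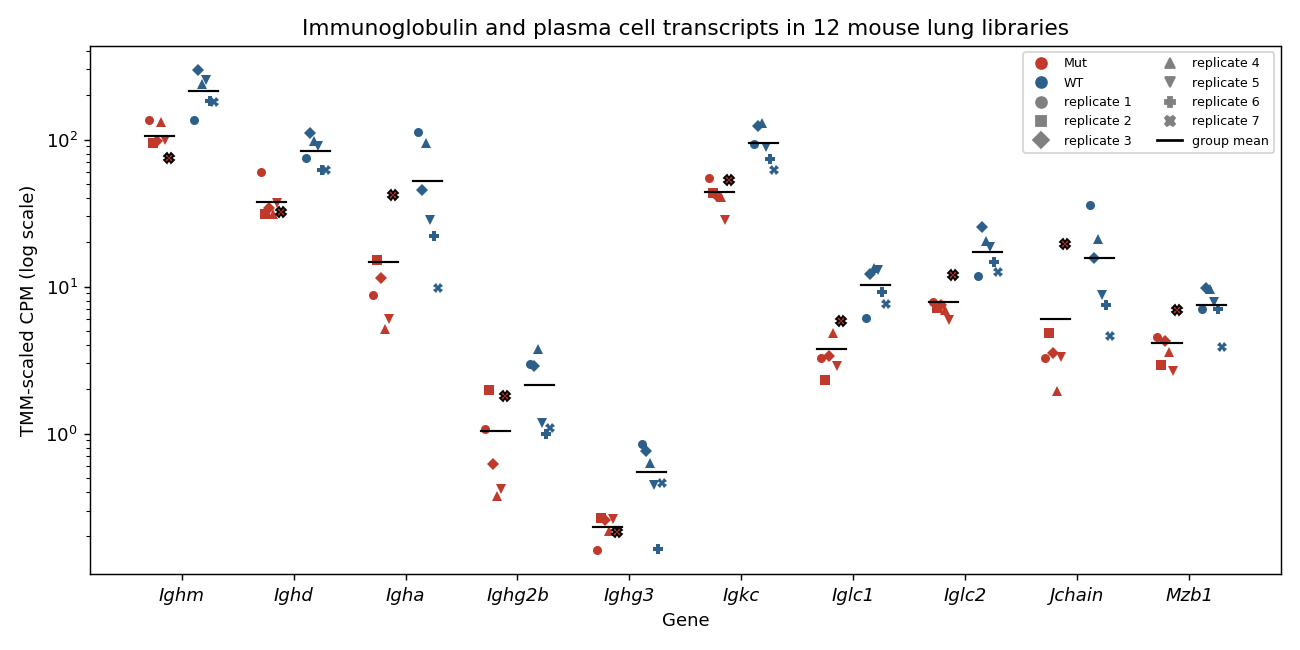
TMM-scaled CPM of the 10 genes (y axis, log scale) in each library, Mut in red on the left and WT in blue on the right of each gene, with a marker shape per replicate number, a black outline for Mut replicate 7 and a line at each group mean. The groups separate fully for Ighd, Igkc and Iglc1, while Igha and Jchain spread over about an order of magnitude within a group.

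Ighm (ENSMUSG00000076617, chromosome 12 from 113418558 to 113422730 of GRCm38, minus strand) encodes the constant region of IgM, the first class a B cell makes. It read 136, 94.2, 97.6, 132, 99.8 and 75.4 CPM in Mut replicates 1, 2, 3, 4, 5 and 7, and 135, 298, 238, 253, 184 and 179 CPM in WT replicates 1, 3, 4, 5, 6 and 7. A single WT library, replicate 1, lay within the Mut range, just below the highest Mut library. The means were 106 ± 23.5 CPM in Mut and 214 ± 59.0 CPM in WT (SD, n = 6 each), a log2 fold change of −1.02 (SE 0.18, adjusted p = 0.00411, edgeR quasi-likelihood test).

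Ighd (ENSMUSG00000104213, chromosome 12 from 113406604 to 113416324, minus strand) lies next to Ighm and encodes the constant region of IgD, found mostly on mature naive B cells. It read 60.6, 30.9, 34.1, 31.2, 36.9 and 32.1 CPM in Mut replicates 1, 2, 3, 4, 5 and 7, and 75.3, 111, 98.3, 90.6, 62.0 and 62.1 CPM in WT replicates 1, 3, 4, 5, 6 and 7. The groups did not overlap, although Mut replicate 1 came close to the lowest WT libraries and stood well above the other Mut libraries. The log2 fold change was −1.15 (SE 0.18, adjusted p = 0.00270, edgeR quasi-likelihood test), the smallest p of the 9.

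The ratio of the neighbouring heavy chain genes within a library does not depend on how libraries are scaled. Per library there were 2.25 to 4.21 Ighm reads for each Ighd read in Mut and 1.80 to 2.97 in WT. The mean log2 ratio was 1.51 ± 0.32 in Mut and 1.35 ± 0.27 in WT (SD, n = 6 each), a difference of 0.15 (SE 0.17) that did not pass (two-sided exact permutation test, p = 0.429, 0.745 adjusted over the 6 ratios compared).

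Light chain transcripts were lower in Mut as well. Igkc (ENSMUSG00000076609, chromosome 6 from 70726435 to 70726966, plus strand), the only kappa constant gene, read 55.2, 43.6, 41.5, 40.7, 28.5 and 53.0 CPM in Mut replicates 1, 2, 3, 4, 5 and 7, and 92.6, 123, 130, 89.7, 73.9 and 61.9 CPM in WT replicates 1, 3, 4, 5, 6 and 7. Every Mut library lay below every WT library, and the log2 fold change was −1.12 (SE 0.18, adjusted p = 0.00289, edgeR quasi-likelihood test). Iglc1 (ENSMUSG00000105906, chromosome 16 from 19061618 to 19062071, minus strand), a lambda constant gene, read 3.27, 2.30, 3.37, 4.86, 2.89 and 5.84 CPM in Mut and 6.10, 12.1, 13.4, 12.9, 9.20 and 7.65 CPM in WT, in the same replicate order. Again the groups did not overlap, by a narrow margin between Mut replicate 7 and WT replicate 1. Its log2 fold change of −1.44 (SE 0.24, adjusted p = 0.00307, edgeR quasi-likelihood test) was the lowest among the called genes.

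Iglc2 (ENSMUSG00000076937, chromosome 16 from 19198396 to 19200351, minus strand), the constant gene of another lambda cluster, read 7.84, 7.12, 7.47, 6.91, 5.89 and 12.02 CPM in Mut and 11.8, 25.3, 20.3, 18.6, 14.8 and 12.5 CPM in WT, in the same replicate order. The highest Mut library, replicate 7, passed the lowest WT library, replicate 1, and the other 5 Mut libraries lay below every WT library. The log2 fold change was −1.12 (SE 0.20, adjusted p = 0.00441, edgeR quasi-likelihood test). A near copy, Iglc3, was lower too (2.51 ± 1.01 CPM in Mut and 6.49 ± 2.04 CPM in WT, SD, n = 6 each, log2 fold change −1.36, adjusted p = 0.00573 by the same test).

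How far reads of the lambda genes can be told apart is seen from their last 120 coding bases, read from GENCODE M21 transcripts on GRCm38 at chr16:19061752-19061871 for Iglc1, chr16:19198536-19198655 for Iglc2 and chr16:19065365-19065484 for Iglc3, all on the minus strand and printed 5′ to 3′. Capitals mark bases that are not the same in all 3 genes.
Iglc1: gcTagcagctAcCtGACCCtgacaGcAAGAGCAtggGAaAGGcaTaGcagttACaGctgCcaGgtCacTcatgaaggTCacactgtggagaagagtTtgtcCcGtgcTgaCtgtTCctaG
Iglc2: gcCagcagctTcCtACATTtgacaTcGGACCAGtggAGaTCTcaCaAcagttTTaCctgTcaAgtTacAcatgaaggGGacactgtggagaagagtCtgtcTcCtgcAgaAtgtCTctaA
Iglc3: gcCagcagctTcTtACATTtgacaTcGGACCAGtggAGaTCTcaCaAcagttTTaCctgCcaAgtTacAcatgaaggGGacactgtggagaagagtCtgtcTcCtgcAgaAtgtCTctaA
Of these 120 bases 40 vary among the 3 genes, but only 2 separate Iglc2 from Iglc3. Over the aligned coding bases Iglc1 was 73.2% identical to Iglc2, while Iglc2 was 96.5% identical to Iglc3. Of the 50-base windows of Iglc2 transcripts, 7.65% also occurred in Iglc3, and 0% of those of Ighm, Ighd, Igha, Igkc, Iglc1 or Jchain occurred in another of the 14 constant and J chain genes compared. Values of Iglc2 and Iglc3 may therefore mix a part of their reads. Per library there were 0.202 to 0.337 reads of Iglc1 and Iglc2 for each Igkc read in Mut and 0.193 to 0.352 in WT. The lambda to kappa difference was −0.12 on the log2 scale (SE 0.18, two-sided exact permutation test, p = 0.502, adjusted p = 0.745), smaller than the spread within either group.

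Igha had the lowest log2 fold change of the 9, and its difference did not pass. Igha (ENSMUSG00000095079, chromosome 12 from 113254830 to 113260236, minus strand) encodes the constant region of IgA, the main antibody of mucosal secretions. It read 8.80, 15.1, 11.5, 5.13, 5.99 and 42.0 CPM in Mut replicates 1, 2, 3, 4, 5 and 7, and 112, 45.3, 94.6, 28.2, 22.2 and 9.78 CPM in WT replicates 1, 3, 4, 5, 6 and 7. The highest library exceeded the lowest by 8.19-fold within Mut and by 11.5-fold within WT, against 1.81-fold and 2.20-fold for Ighm. Mut replicate 7 lay above 3 of the WT libraries, and WT replicate 7 lay below 3 of the Mut libraries. The log2 fold change was −1.81 (SE 0.66, adjusted p = 0.101, edgeR quasi-likelihood test), with a 95% confidence interval of −3.24 to −0.37. Without Mut replicate 7 it was −2.48 (adjusted p = 0.0316), a call, and DESeq2 on all libraries also made the call (−1.82, adjusted p = 0.0429). These were the only calls of Igha, 1 of 12 alternatives that kept all libraries and 1 of 12 that left one out. With 1 library left out, the edgeR log2 fold change ran from −2.48 to −1.43, with adjusted p up to 0.211.

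Jchain (ENSMUSG00000067149, chromosome 5 from 88519809 to 88527891, minus strand) followed Igha. It read 3.27, 4.82, 3.53, 1.94, 3.31 and 19.5 CPM in Mut replicates 1, 2, 3, 4, 5 and 7, and 36.2, 15.8, 20.9, 8.74, 7.49 and 4.60 CPM in WT replicates 1, 3, 4, 5, 6 and 7. In Mut, 4 libraries lay below every WT library, replicate 2 was just above the lowest WT library, and replicate 7 was above 4 of the WT libraries. The log2 fold change was −1.35 (SE 0.62, adjusted p = 0.180, edgeR quasi-likelihood test), with a 95% confidence interval of −2.69 to −0.0031. Leaving out Mut replicate 7 gave −2.21 (adjusted p = 0.0188), a call. Leaving out WT replicate 1, the library with the most Jchain, gave −0.90 (adjusted p = 0.335).

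Across the libraries of each group Jchain moved with Igha. Within Mut the log2 CPM of Igha and Jchain had a Pearson r of 0.958 and a Spearman rho of 0.943 (n = 6, exact permutation p = 0.00278 and 0.0167, 0.00833 and 0.050 adjusted over 6 relations). Within WT r was 0.979 and rho 1.00 (n = 6, exact permutation p = 0.00278 for both, 0.00833 and 0.0167 adjusted). Without the 2 libraries farthest from the median of Igha, r was 0.810 in Mut and 0.969 in WT. Igha and Ighm had r of −0.804 and rho of −0.829 in Mut (exact permutation p = 0.0472 and 0.0583, 0.0944 and 0.117 adjusted) and r of −0.051 and rho of −0.029 in WT (exact permutation p = 0.926 and 1.00, the same adjusted). Without the 2 farthest libraries these r were −0.306 and 0.414, so the Mut value rests on those libraries. For Ighm and Ighd r was 0.567 and rho 0.543 in Mut (exact permutation p = 0.292 and 0.297, 0.350 and 0.357 adjusted) and r was 0.763 and rho 0.714 in WT (exact permutation p = 0.0889 and 0.136, 0.133 and 0.204 adjusted). Without their 2 farthest libraries r was 0.526 and 0.960. The 3 pairs were chosen after the values were seen, and CPM of 1 library share its scaling factor.

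**Figure D2:**
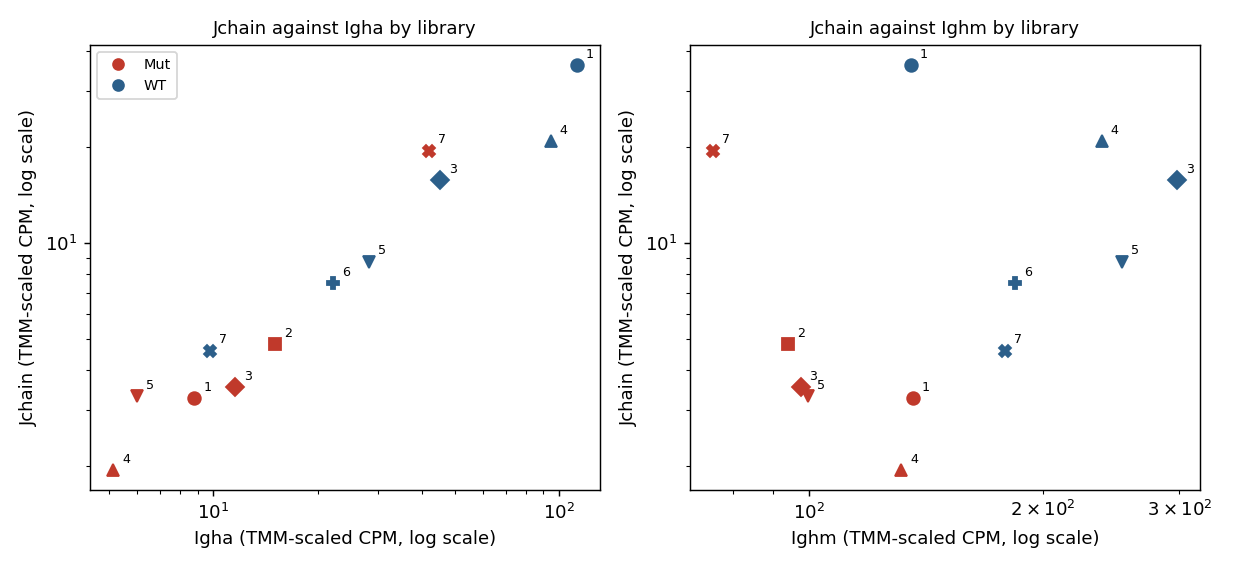
Jchain against Igha (left) and Jchain against Ighm (right), both axes in TMM-scaled CPM on log scales, with 1 point per library (Mut red, WT blue) numbered by replicate. Jchain climbs with Igha across both groups, from Mut replicate 4 at 5.13 CPM of Igha to WT replicate 1 at 112 CPM, and shows no such order along Ighm.

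The shares of Ighm, Ighd and Igha overlapped between the groups. Per length (FPKM, reads per kilobase of gene scaled to library size, as deposited), Ighm held 67.9% ± 7.88 of the summed heavy chain constant genes in Mut and 63.8% ± 9.82 in WT, and Ighd 23.8% ± 3.67 and 24.5% ± 0.740 (SD, n = 6 each). Igha held 2.16% to 21.4% in Mut and 2.78% to 27.1% in WT. The highest share belonged to replicate 7 in Mut and to replicate 1 in WT. The IgG genes together held 0.662% to 1.60% in Mut and 0.581% to 1.26% in WT. Within this sum Ighg2c held 0.375% ± 0.159 in Mut and 0.154% ± 0.0791 in WT, with 4 Mut libraries above every WT library, a share that rests on 2 to 12 reads per library and was not tested. In reads, the log2 ratio of Igha to Ighm was −3.21 ± 1.37 in Mut and −2.45 ± 1.41 in WT (difference −0.75, SE 0.80, two-sided exact permutation test, p = 0.368, adjusted p = 0.745). Leaving out Mut replicate 7 made this difference −1.23 (adjusted p = 0.474). Leaving out WT replicate 1 made it −0.32 (adjusted p = 0.955).

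**Figure D3:**
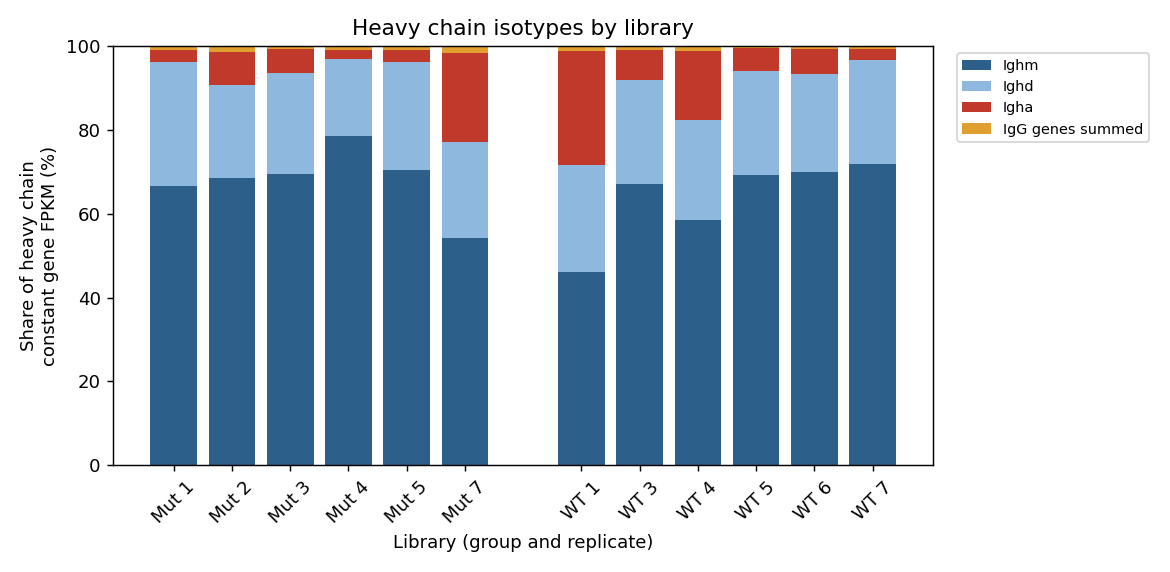
Shares of Ighm, Ighd, Igha and the summed IgG genes in the FPKM of all heavy chain constant genes (y axis, percent), 1 bar per library, Mut on the left and WT on the right. Igha is widest in Mut replicate 7 (21.4%) and in WT replicates 1 (27.1%) and 4, and the IgG genes stay under 2% throughout.

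The IgG genes, products of class switching in the systemic response, were scarce. Ighg2b (ENSMUSG00000076613, chromosome 12 from 113302965 to 113307933, minus strand) had 20, 37, 12, 7, 8 and 42 reads in Mut replicates 1, 2, 3, 4, 5 and 7, and 60, 60, 66, 24, 18 and 19 reads in WT replicates 1, 3, 4, 5, 6 and 7. The groups overlapped, and the log2 fold change of −1.02 (SE 0.44) was not called (adjusted p = 0.144, edgeR quasi-likelihood test). Ighg3 (ENSMUSG00000076615, chromosome 12 from 113356224 to 113361232, minus strand) had 3, 5, 5, 4, 5 and 5 reads in Mut and 17, 16, 11, 9, 3 and 8 reads in WT, in the same replicate order. Of the WT libraries 5 lay above every Mut library in scaled CPM, and without the low-count filter the log2 fold change was −1.26 (adjusted p = 0.0898, edgeR quasi-likelihood test).

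The remaining switched classes had few reads. Ighg1 had 1 to 3 reads per Mut library and 3 to 34 per WT library (log2 fold change −2.82, adjusted p = 0.000148, edgeR without the low-count filter), a fitted value that rests on very few Mut reads. Ighg2c had 3 to 12 reads in Mut and 2 to 12 in WT (0.11, adjusted p = 0.938 in that fit). Ighe, the IgE gene, had 0 or 1 read per Mut library and up to 2 per WT library. Iglc4, a lambda light chain gene and not a switched class, had 0 to 3 reads in Mut and 0 to 4 in WT. With IgG1, IgG2b, IgG2c and IgG3 summed, the log2 ratio of IgG to Ighm was −5.91 ± 0.715 in Mut and −5.89 ± 0.718 in WT (difference −0.02, SE 0.41, two-sided exact permutation test, p = 0.965, also when adjusted).

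Mzb1 (ENSMUSG00000024353, chromosome 18 from 35647267 to 35649367, minus strand) was lower in Mut by the smallest margin of the called genes. It read 4.51, 2.94, 4.26, 3.57, 2.68 and 6.91 CPM in Mut replicates 1, 2, 3, 4, 5 and 7, and 7.10, 9.77, 9.57, 7.81, 7.05 and 3.91 CPM in WT replicates 1, 3, 4, 5, 6 and 7. Of the WT libraries 5 lay above every Mut library, and WT replicate 7 lay inside the Mut range. The log2 fold change was −0.86 (SE 0.24, adjusted p = 0.0359, edgeR quasi-likelihood test). The call was lost when any one of WT replicates 3, 4, 5 or 6 or Mut replicates 1, 2, 4 or 5 was left out, with adjusted p up to 0.0807. Neither limma fit of FPKM made the call, on log2(FPKM + 1) (adjusted p = 0.0548) or on log2(FPKM + 0.1) (adjusted p = 0.0564).

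Relative to Cd79a, a signalling chain of the B cell receptor that plasma cells reduce, neither secretory gene differed beyond the spread. For each Cd79a read there were 0.0643 to 1.08 Jchain reads in Mut and 0.128 to 0.853 in WT (log2 difference −0.33, SE 0.71, two-sided exact permutation test, p = 0.621, adjusted p = 0.745). For Mzb1 there were 0.117 to 0.383 reads in Mut and 0.109 to 0.168 in WT (log2 difference 0.30, SE 0.28, two-sided exact permutation test, p = 0.361, adjusted p = 0.745). The highest value of both in Mut was that of replicate 7, which had the lowest Cd79a and Ighm of all 12 libraries in scaled CPM. Without it the Mzb1 difference was 0.05 and the Jchain difference −0.84. Without WT replicate 1 the Jchain difference changed sign (0.05).

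Ordered per length, the genes stood in the same order by mean FPKM in both groups, Igkc, Ighm, Ighd, Iglc2, Iglc1, Igha, Mzb1, Jchain, Ighg2b and Ighg3. Igkc averaged 80.3 ± 17.7 FPKM in Mut and 182 ± 50.9 FPKM in WT, Ighm 54.8 ± 12.4 and 116 ± 32.5 FPKM, and Ighg3 0.0894 ± 0.0158 and 0.224 ± 0.102 FPKM (SD, n = 6 each). Igkc lay above Ighm, Ighm above Ighd, and Iglc2 above Iglc1 in all 12 libraries. The middle of the order was not settled, since Iglc1 lay above Igha in 4 of 6 Mut and 4 of 6 WT libraries, Igha above Mzb1 in 2 of 6 Mut and 5 of 6 WT libraries, and Mzb1 above Jchain in 5 of 6 of each group. The place of Mzb1 also depends on its gene length, 905 bases in the deposited values against 1215 in GENCODE M21. As deposited, Mzb1 averaged 8.48 FPKM and Jchain 6.32 FPKM in WT, an order that the longer length could change.

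The genes were set beside other lists of the same lineage. All 15 B cell identity genes tested were lower in Mut (median log2 fold change −0.99), among them Cd37, Cd79b and Cd79a, with log2 fold changes between −1.22 and −1.05. The 15 tested genes of the plasma cell programme had a median of −0.13, with 3 called lower and 0 higher. Those 3 were Tnfrsf13b (−0.88, adjusted p = 0.00196), a receptor for B cell survival factors, Pou2af1 (−0.91, adjusted p = 0.0106), a B cell coactivator of immunoglobulin genes, and Irf4 (−0.65, adjusted p = 0.0292), a transcription factor of lymphocytes (edgeR quasi-likelihood test). All 3 are also active in B cells that do not secrete. Sec11c, part of the signal peptidase, had the next smallest p and was not called (−0.22, adjusted p = 0.128). Well-known plasma cell genes were not called either. For Xbp1, which expands the secretory pathway, the log2 fold change was 0.19 (adjusted p = 0.273). For Prdm1, a regulator of plasma cell fate, it was 0.06 (adjusted p = 0.831), and for Sdc1, the surface marker CD138, −0.02 (adjusted p = 0.939). Lung epithelium and other cells also express these 3. The more restricted Tnfrsf17, the receptor BCMA, had 1 to 6 reads in Mut and 2 to 18 in WT and was not tested. Derl3, of the same list, was not called. It read 1.05 to 1.93 CPM in Mut and 0.575 to 1.55 CPM in WT, with overlap and without a lean towards lower values in Mut.

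**Figure D4:**
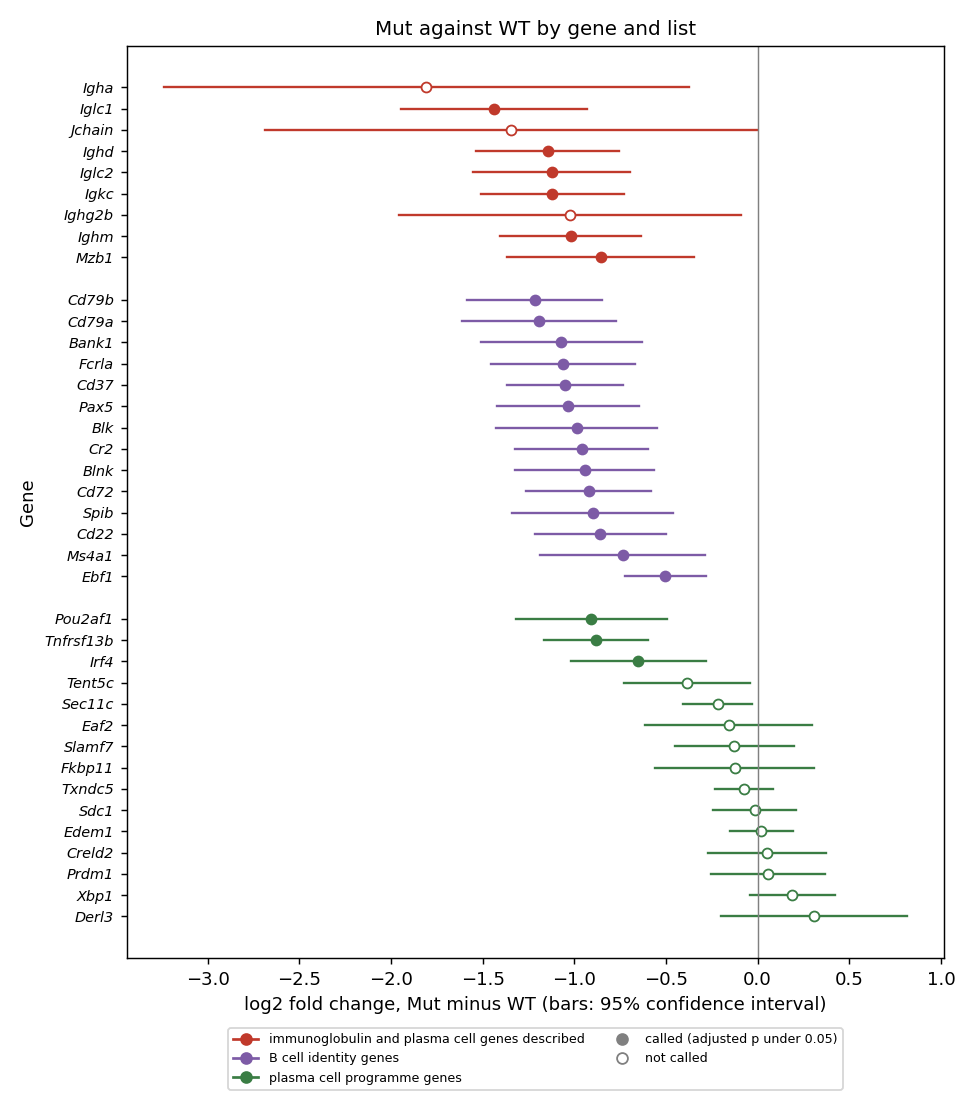
Log2 fold changes, Mut minus WT, with 95% confidence intervals (x axis) for the 9 tested genes described here (red), B cell identity genes (purple) and 15 plasma cell programme genes (green), filled where the adjusted p was under 0.05. The red intervals of Igha, Jchain and Ighg2b are the widest, and 12 of the 15 green genes are not called.

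Of 11 tested receptors and transporters of antibody, Fcer2a, the low-affinity IgE receptor CD23 of B cells (log2 fold change −1.25, adjusted p = 0.00493), and Fcmr, the IgM receptor (−1.03, adjusted p = 0.00980), were lower and 0 were higher (edgeR quasi-likelihood test, median −0.12). Fcer1g, a signalling chain of Fc receptors on myeloid cells (−0.47, adjusted p = 0.0701), and Fcgrt, the neonatal Fc receptor that recycles IgG (−0.15, adjusted p = 0.245), had the next smallest p and were not called in edgeR. DESeq2 called 3 of the receptors and transporters lower and 0 higher. Of 12 tested genes of the plasma cell niche, 1 was lower, Cxcr5 (−1.08, adjusted p = 0.00342, edgeR quasi-likelihood test), the chemokine receptor that guides B cells to follicles. DESeq2 called 2 niche genes lower and 0 higher. Of 9 tested genes of class switching and receptor gene recombination 0 passed in edgeR or in DESeq2, and 1 had an unadjusted p under 0.05, the recombinase gene Rag1 (log2 fold change −1.20, adjusted p = 0.0581). The next smallest p in the niche list were those of Ccl25 (−0.37, adjusted p = 0.0692), Ccl28 (0.83, adjusted p = 0.0945) and Itga4 (−0.36, adjusted p = 0.136), by edgeR. Variable gene segments, the other portion of these transcripts, summed to 50.5 to 80.7 CPM in Mut and 101 to 182 CPM in WT, also without overlap.

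Most markers of T cells and of erythroid cells were lower in Mut as well, while those of several other cell types were not called. Of 10 T and natural killer cell markers 7 were lower and 0 higher in Mut, all 7 of them T cell genes, with sums of 73.1 to 126 CPM in Mut and 126 to 181 CPM in WT. The natural killer cell markers Ncr1 (log2 fold change −0.22, adjusted p = 0.563) and Klrb1c (−0.10, adjusted p = 0.804) were not called by edgeR. Of 8 erythroid markers 7 were lower and 0 higher in edgeR, and 8 were lower in DESeq2. Their sums were 155 to 822 CPM in Mut and 984 to 5892 CPM in WT. Of 7 tested airway and gland markers 3 were higher and 0 lower in edgeR, and 4 were higher and 0 lower in DESeq2. The airway and gland sums were 10576 to 20542 CPM in Mut and 13426 to 22661 CPM in WT. Scgb1a1, the secretory protein of club cells, made up most of these sums and was not called (14569 ± 2779 CPM in Mut and 16200.2 ± 3078 CPM in WT, log2 fold change −0.15), while the called Bpifa1, an airway secretory protein, averaged 677 ± 415 CPM in Mut and 73.5 ± 69.9 CPM in WT (3.21, adjusted p = 0.0230, edgeR quasi-likelihood test). Of 7 tested neutrophil markers 0 passed in edgeR or DESeq2 and 0 had an unadjusted p under 0.05, with sums of 83.0 to 249 CPM in Mut and 93.6 to 193 CPM in WT. Of 8 alveolar markers 0 passed in edgeR or DESeq2 and 2 were higher at an unadjusted p under 0.05. Of 6 endothelial markers 0 passed in either tool or at an unadjusted p under 0.05. Of 7 dendritic cell markers 1 was lower in edgeR, Ccr7 (log2 fold change −0.90), and 2 were lower in DESeq2. The other dendritic markers ran from −0.49 (Siglech) to 0.19 (Flt3) and were not called in edgeR. Dendritic sums were 460 to 624 CPM in Mut and 594 to 738 CPM in WT. Of 7 fat, heart and lymphoid tissue markers tested 1 was higher (Plin1) and 1 lower (Cd8b1, a T cell gene) in edgeR, and 2 were higher and 1 lower in DESeq2. At an unadjusted p under 0.05 in edgeR, 4 of these markers were higher and 1 lower, and the median log2 fold change was 1.305. Their sums were 178 to 1235 CPM in Mut and 95.2 to 472 CPM in WT. None of the markers listed was at 0 in all libraries. Their part in the immunoglobulin result was not tested.

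Genes whose level followed Ighm or Jchain closely were looked for among all tested genes. After the group mean was taken from each of the 12 libraries, log2 CPM of Ighm had a Pearson r of 0.948 with Siglecg, an inhibitory receptor of B cells, 0.936 with Spib, a transcription factor of B cells and plasmacytoid dendritic cells, and 0.935 with 1 entry that matches no annotated gene. Jchain had r of 0.940 with Aass, 0.930 with 2810403D21Rik, 0.927 with Cdkn2b, 0.911 with Ostm1 and 0.907 with Micu2, none of them in the lists. Without Mut replicate 7, an alternative chosen after the data were seen, r over the remaining 11 libraries was 0.920 to 0.940 for these Ighm partners and 0.870 to 0.939 for these Jchain partners. Among the described genes Jchain had r of 0.962 with Igha, 0.792 with Ighg2b and 0.582 with Igkc, and without that library 0.961, 0.777 and 0.552. The r of Jchain with Mzb1 was 0.669 with that library and 0.464 without it, and with Ighm −0.454 and −0.246. Ighm had r of 0.436 with Iglc1 and 0.379 with Iglc2, and 0.849 with each of them without Mut replicate 7. All values of 1 library share its depth and scaling, and the top genes were picked from all tested genes of at least 1 CPM on average.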

How the data were processed

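RNA was enriched with oligo(dT) and reverse transcribed from random hexamer primers, and the labels' protocols mention no strand marking. The deposited count table gives unscaled whole read counts per gene. The deposited FPKM values of these genes equal their counts over library total and gene length. That length was the GENCODE M21 exon length for 9 of the 10 genes (Mzb1 905 against 1215 bases). The submitters' processing notes name the build mm10 and the package limma. Aligner and counter are not given in the sources used here, so the handling of reads shared by copies is unknown. Entries with no Ensembl identifier (4690) held 0.585% to 0.868% of the counts.

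The main test was edgeR 4.0.16 in R 4.3.3 (filterByExpr with minimum count 10 and minimum total 15, TMM scaling, robust quasi-likelihood test, genotype as the only term). Benjamini-Hochberg adjustment ran over all 19004 tested genes, with calls at an adjusted p under 0.05. Ratios within a library used raw counts with 0.5 added to each side and an exact permutation test of 6 libraries against 6 (two-sided, smallest p 0.00216). Alternatives used DESeq2 1.42.0, limma 3.58.1, other scalings and filters, the replicate number as a block, and each library left out in turn. The genes, lists and ratios were chosen with earlier results of these data known. Named were the 10 genes, every other constant gene, up to 4 genes of smallest p per other list, and the 5 closest patterns to Ighm and Jchain. Xbp1, Prdm1, Sdc1, Tnfrsf17 and Derl3 were named after their values were seen. A few genes that this rule names are not reported here. The edgeR and permutation steps were tested on simulated data. Sequences were read in Python 3.11.15 from GENCODE M21 transcripts.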

Additional observations from a re-analysis of the deposited data

Results flagged for a closer look

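Within the groups of 6 libraries, 5 values lay far from the others by Dixon's test, of 32 groups examined. The test flags about 1 in 20 by chance if groups are independent and values normally distributed. These groups share libraries and the gene values were CPM without a log, so that rate is no baseline for the 5. In Mut, replicate 7 had 42.0 CPM of Igha, against 5.13 to 15.1 CPM in the other Mut libraries, and 19.5 CPM of Jchain, against 1.94 to 4.82 CPM. It also had 12.02 CPM of Iglc2, against 5.89 to 7.84 CPM, and a log2 ratio of Mzb1 to Cd79a of −1.38, against −3.09 to −2.48. The same library had the highest total, 24014890 counts, and had the lowest endothelial marker sum of all. Mut replicate 1 had 60.6 CPM of Ighd, against 30.9 to 36.9 CPM in the other Mut libraries. No WT value was flagged.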

How the results depend on the processing

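The count of 6 genes called lower stayed between 5 and 7 under the 11 alternatives of scaling, filter, tool and entries. It stayed between 5 and 8 when each library was left out, with 8 without Mut replicate 7. The all-gene count of that 1 fit alone is not given here, so no share stands beside the 8. Ighd was called in all 24 alternative fits, and Ighm, Igkc, Iglc1 and Iglc2 in 23 each, while Mzb1 was called in 9 of 12 alternatives that kept all libraries and in 4 of 12 that left one out (adjusted p up to 0.236). No gene changed direction. Over all genes 1879 were called, against 1234 (980 lower, 254 higher) by limma on log2(FPKM + 1), 1224 (965 lower, 259 higher) on log2(FPKM + 0.1), and 957 to 2368 with 1 library left out. Same-numbered samples did not deviate together (correlations of −0.144 to 0.112 over 5 pairs), so the replicate numbers were not taken as pairs. With the replicate block 107 genes were called (33 lower, 74 higher) and 1 of the 10, Ighd, while the log2 fold changes of the other 5 called genes were −1.35 to −0.81. The cause was not tested. No ratio passed under any alternative. The IgG to Ighm ratio, −0.02, changed sign with 5 added to each side (0.0674) and ranged from −0.23 to 0.19 with 1 library left out. The Jchain to Cd79a ratio ranged from −0.84 to 0.0512 in those fits, with the changed sign without WT replicate 1. Low counts limit the IgG genes, Ighg2b included (7 to 42 reads per Mut library and 18 to 66 per WT library). The spread between libraries limits Igha and Jchain.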
